A study of Mus musculus with 14 samples.

Results

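Heat shock and chaperone genes were taken from the gene table by name, as every gene called Hspa to Hsph or Hsp followed by a digit, Dnaja, Dnajb or Dnajc, Cct2 to Cct8 with Tcp1, Bag1 to Bag6, Hsf or Pfdn, without the copies marked as pseudogenes. The names gave 102 of the 24421 genes in the table, and the 85 with at least 10 counts in at least 3 of 6 RNA-seq libraries are described here. The name rule also holds genes that are not chaperones, among them Hspg2 (perlecan, a basement membrane proteoglycan), Hspb11 (the intraflagellar transport protein IFT25) and Hsf2bp (a partner of a heat shock factor known from meiosis).

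Photoreceptors were sorted by their GFP from the retinas of C57BL/6 mice 8 weeks old. Rods came from Nrl-eGFP mice, in which the promoter of the rod gene Nrl drives GFP, and Nrl-/- photoreceptors from mice that carry the same reporter and lack NRL (Nrl-eGFP;NrlKO). The Nrl-/- cells are labelled blue cones and stand in for native cones as cone-like cells that arise where rods would form. RNA-seq was done on 3 libraries per genotype, each pooled from several retinas, and ATAC-seq, which cuts accessible DNA with a transposase, on 2 libraries each of rods, Nrl-/- photoreceptors and green cones sorted from Opn1mw-GFP mice, the last in a single-sorted and a double-sorted set. The comparison asked how far the protein folding machinery differs between a rod and a cone-like photoreceptor.

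Marker genes were checked against the labels. Nrl stood, in CPM (counts per 1000000 counts of a library, with library sizes scaled by TMM), at 599, 845 and 745 in rods and at 34.5, 39.3 and 24.6 in Nrl-/- photoreceptors, and the summed CPM of 6 cone genes was 538 to 551 against 77700 to 87260. Summed markers of other cells also moved with genotype. The 10 Müller glia genes summed to 113 to 183 CPM in rods and 731 to 893 in Nrl-/- photoreceptors, mostly Clu and Apoe, the 2 of the list that were higher there in the test against no change, while Aqp4, Dkk3 and Slc1a3 were higher in rods. The 8 bipolar genes summed to 79.8 to 108 against 1372 to 1568, mostly Cabp5, while the bipolar gene Prkca was higher in rods beyond 2-fold (52.6 against 8.41 CPM). The 8 microglia genes summed to 3.14 to 5.68 against 21.99 to 48.6, and the 10 immediate early genes, which respond within minutes to stimuli, to 98.3 to 135 against 464 to 595. The immediate early sum differed mostly through Egr1 (6.66 against 187 CPM) and Nr4a1 (5.08 against 102 CPM). In the test against no change, 8 of these 10 were higher in Nrl-/- photoreceptors, Dusp1 was higher in rods (5.67 against 2.85 CPM) and Zfp36 was not called. Markers of 2 cell types summed higher in rods, at 9.13 to 12.3 against 2.13 to 4.68 CPM for 6 endothelial genes and 108 to 128 against 69.3 to 83.8 for 6 amacrine genes. The first difference came mostly from Pecam1 (6.61 against 0.450 CPM) and the second from Slc6a9 (117 against 76.1 CPM). No other gene of these lists was called, and Gad1 and Tfap2b, near 0, were not higher in rods. All 4 haemoglobin genes were at 0 in every library. The study's sample sheet also lists lower RNA integrity for each rod library than for any Nrl-/- library, and far fewer sorted cells for the latter. The part of these differences in the results below was not tested, and genotype, RNA integrity and cell number cannot be told apart. In sorted bulk samples, fewer cells of a type and less RNA per cell cannot be told apart either.

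Chaperones bind unfolded proteins and help them reach or keep their shape. HSP70 proteins do so in cycles of ATP, with J-domain proteins (the Dnaj genes) that deliver clients and set off ATP use, and with nucleotide exchange factors such as the HSP110 and BAG proteins that release them. HSP90 takes partly folded clients, the ring of CCT subunits folds actin and tubulin handed over by prefoldin, and small heat shock proteins hold unfolded clients without ATP. Heat shock factors raise the inducible members by binding inverted repeats of GAA in their promoters, and the unfolded protein response of the endoplasmic reticulum (ER) raises the ER members through the ER stress element. Photoreceptors renew their outer segments throughout life, which keeps a large flow of opsin through the ER.

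Promoters of members that the results turn on are shown first, so that the letters can be set beside the RNA of each gene. Sequences run 5′ to 3′ on the strand of the gene from 250 bases before to 50 after a RefSeq start (build GRCm38.p6), and RefSeq windows were found for 70 of the 85 described members. Capitals mark GAANNTTC, TTCNNGAA or the heat shock element of 3 inverted GAA units in the first 4 promoters, of genes whose products are heat-inducible, and the ER stress element (CCAAT and CCACG parted by 9 bases) in the last 2. Both strands were searched, and the heat shock element of 3 units contains both 8-letter motifs. Members without a window, among them Hspa8, Hsp90aa1, Hsp90ab1, Hspa12a and Dnajc28, were not searched. Hspa1a lies at chr17:34972107-34972406 on the minus strand, its near copy Hspa1b at chr17:34959189-34959488 (minus), Hsph1 at chr5:149636266-149636565 (minus), Hspd1 at chr1:55087883-55088182 (minus), Hspa5 at chr2:34771840-34772139 (plus) and Hsp90b1 at chr10:86705395-86705694 (minus).
Hspa1a: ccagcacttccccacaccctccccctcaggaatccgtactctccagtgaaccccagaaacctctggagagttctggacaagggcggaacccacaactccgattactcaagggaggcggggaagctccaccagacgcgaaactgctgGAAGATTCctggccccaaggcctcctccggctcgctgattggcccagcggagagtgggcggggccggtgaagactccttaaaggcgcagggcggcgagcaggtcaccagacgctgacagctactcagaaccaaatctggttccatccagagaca
Hspa1b: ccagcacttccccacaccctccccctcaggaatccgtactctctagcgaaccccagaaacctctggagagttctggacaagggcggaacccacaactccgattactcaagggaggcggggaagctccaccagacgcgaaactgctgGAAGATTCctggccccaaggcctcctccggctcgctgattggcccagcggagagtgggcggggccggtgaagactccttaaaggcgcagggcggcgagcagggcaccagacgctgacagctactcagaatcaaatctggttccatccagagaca
Hsph1: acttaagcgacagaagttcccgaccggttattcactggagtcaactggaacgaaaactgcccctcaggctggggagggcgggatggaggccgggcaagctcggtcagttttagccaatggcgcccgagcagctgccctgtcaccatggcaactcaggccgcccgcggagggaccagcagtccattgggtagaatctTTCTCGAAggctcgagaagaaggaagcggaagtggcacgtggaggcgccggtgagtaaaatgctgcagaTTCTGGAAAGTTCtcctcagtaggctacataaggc
Hspd1: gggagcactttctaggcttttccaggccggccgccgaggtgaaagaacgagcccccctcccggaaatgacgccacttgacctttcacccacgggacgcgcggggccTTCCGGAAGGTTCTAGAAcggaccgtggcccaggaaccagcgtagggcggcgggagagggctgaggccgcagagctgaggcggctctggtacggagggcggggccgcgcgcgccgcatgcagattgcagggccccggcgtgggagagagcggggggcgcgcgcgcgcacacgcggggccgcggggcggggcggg
Hspa5: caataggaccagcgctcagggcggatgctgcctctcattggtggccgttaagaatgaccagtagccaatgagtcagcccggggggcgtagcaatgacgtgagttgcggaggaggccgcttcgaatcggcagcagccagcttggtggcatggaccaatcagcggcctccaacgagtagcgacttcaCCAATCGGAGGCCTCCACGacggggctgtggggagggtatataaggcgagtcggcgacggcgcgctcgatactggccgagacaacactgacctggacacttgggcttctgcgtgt
Hsp90b1: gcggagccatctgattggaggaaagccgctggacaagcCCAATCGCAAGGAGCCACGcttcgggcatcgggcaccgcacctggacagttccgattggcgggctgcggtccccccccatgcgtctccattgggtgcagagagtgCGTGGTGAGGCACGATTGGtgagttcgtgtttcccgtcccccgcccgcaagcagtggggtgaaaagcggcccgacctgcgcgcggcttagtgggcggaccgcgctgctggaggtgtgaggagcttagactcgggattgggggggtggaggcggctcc

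The motif GAANNTTC was in 9.04% of the 27025 genes with a window, in 15.7% of the 70 described members and in 9 of the 11 genes with a window on a list of 12 heat-inducible chaperones. The heat shock element of 3 units was in 0.662% of all genes and in 4 of the 70 members, Hsph1, Hspd1, Hspe1 and Dnajb6, of which Hspd1 and Hspe1 are neighbours read in opposite directions whose windows overlap on the same letters. The ER stress element was in 0.137% of all genes and in 3 of the 70 members, Hspa5, Hsp90b1 and Dnajc3. These matches are letters in a window and say nothing of a factor's binding.

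Between rods and Nrl-/- photoreceptors, 12 of the 85 members differed beyond 2-fold (edgeR quasi-likelihood fit over 12327 genes, null of a 2-fold change, a log2 of 1, Benjamini-Hochberg adjusted p under 0.05). Dnajc28, Hspa1a, Hspa1b and Hsf2bp were higher in rods, and Hspa12a, Hsph1, Hspa5, Hspb6, Hsp90ab1, Bag2, Dnajb11 and Dnajb2 were higher in Nrl-/- photoreceptors. The same test called 20.1% of all genes, 6.85% towards rods and 13.2% towards Nrl-/- photoreceptors, so the 4 and 8 of 85 were below the background in both directions. In the test against no change, called here the test of any size, 14 members passed towards rods and 31 towards Nrl-/- photoreceptors, where 29.5% and 31.3% of all genes did, which puts the members below the background towards rods and near it towards Nrl-/- photoreceptors. The 3 rod libraries lay above all Nrl-/- libraries for 18 members and below them for 34, against 33.2% and 33.8% of all genes (67.0% in both directions). The median log2 fold change, rods over Nrl-/-, was -0.18 over the members and 0.01 over all genes tested.

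In none of the 12 members called beyond 2-fold did the rod and Nrl-/- libraries overlap, which the test that chose them makes near certain. Over all genes tested, the groups did not overlap for 67.0%. Summed over all members, the CPM was 8446 to 10220 in rods and 12290 to 14890 in Nrl-/- photoreceptors. That difference came mostly from Hspa5, Hspb6, Hsp90ab1, Hsp90b1 and Hspa8.

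**Figure D1:**
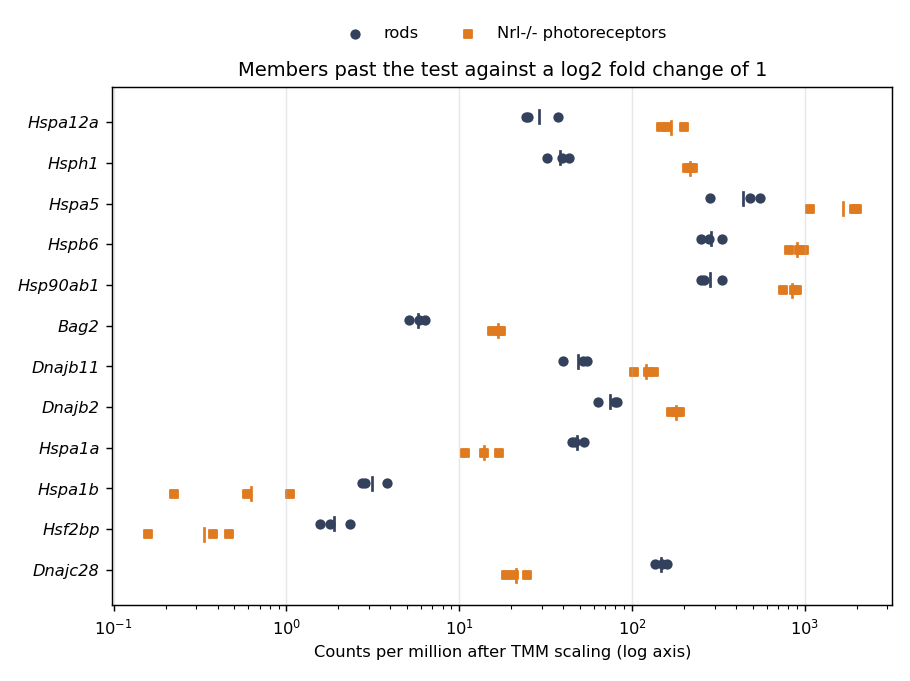
CPM in each RNA-seq library (log axis) for the 12 members past the test against 2-fold, with rods as circles, Nrl-/- photoreceptors as squares and the group mean as a short vertical line (n = 3 libraries per group). The upper 8 genes are higher in Nrl-/- photoreceptors and the lower 4 higher in rods. The genes were chosen by that test on these values, so the lack of overlap in any row is no further result.

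The HSP70 and HSP110 family held members that differed beyond 2-fold in both directions. Of its 14 described members, 2 passed that test towards rods and 3 towards Nrl-/- photoreceptors, and 5 and 4 passed the test of any size. Over all genes, 6.85% and 13.2% passed the first test, and 29.5% and 31.3% the second. The summed CPM of the family was 1523 to 2020 in rods and 2936 to 4217 in Nrl-/- photoreceptors, a difference mostly from Hspa5 and Hspa8.

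Hspa1a, the classic stress-induced HSP70, stood at 52.7, 45.2 and 46.6 CPM in rods and at 10.8, 17.1 and 13.9 in Nrl-/- photoreceptors. All rod libraries were higher, by 1.79 ± 0.17 on the log2 scale (SE, adjusted p = 0.00046 in the test against 2-fold). Its near copy Hspa1b had 56, 73 and 49 counts in rods and 15, 27 and 6 in Nrl-/- photoreceptors (log2 fold change 2.32 ± 0.49, adjusted p = 0.016). Reads that matched more than 1 place were not counted, so reads shared by these copies are missing and both may be undercounted by an unknown amount. The call of Hspa1b was lost without rod library 2 (2.17, adjusted p = 0.07) and with DESeq2 (adjusted p = 0.095). The printed promoters of the 2 copies carry the same GAAGATTC at -104 from the start.

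Hspa8, the HSP70 of unstressed cells, ran the other way. It stood at 223, 399 and 289 CPM in rods and at 589, 847 and 918 in Nrl-/- photoreceptors, with no overlap (log2 fold change -1.37 ± 0.21). It passed the test of any size (adjusted p = 0.00018) but not the test against 2-fold (adjusted p = 0.071), which it passed without rod library 2 (-1.60) or without Nrl-/- library 1 (-1.53). Per kilobase of exon, the counted reads of Hspa1a were at 0.178, 0.0851 and 0.122 of the level of Hspa8 in rods and at 0.0138, 0.0152 and 0.0114 in Nrl-/- photoreceptors. As reads shared by Hspa1a and Hspa1b were not counted, these ratios do not give the true share of the inducible member.

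Hsph1, an HSP110 that releases clients from HSP70, stood at 32.3, 43.3 and 39.2 CPM in rods and at 207, 225 and 218 in Nrl-/- photoreceptors. The difference was -2.50 ± 0.13 on the log2 scale (adjusted p = 2.9e-07), opposite to Hspa1a. Of the other HSP110 genes, Hspa4 was higher in rods in the test of any size (60.4 ± 1.57 against 44.6 ± 7.497 CPM, SD, n = 3, log2 fold change 0.44), and Hspa4l, which passed neither test, stood at 354 ± 19.5 against 343 ± 4.27 CPM.

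Hspa12a, a distant HSP70 relative known from the nervous system, had the largest difference towards Nrl-/- photoreceptors among the 85. It stood at 37.3, 24.3 and 25.1 CPM in rods and at 201, 158 and 147 in Nrl-/- photoreceptors (log2 fold change -2.54 ± 0.18, adjusted p = 5.2e-06). Its paralog Hspa12b had few counts, 15 to 22 in rods and 7 to 11 in Nrl-/- photoreceptors (log2 fold change 1.46 ± 0.49, adjusted p = 0.021 in the test of any size). The mitochondrial Hspa9 stood at 252 ± 9.36 against 294 ± 19.2 CPM and did not pass either test, and Hspa14, a ribosome-bound HSP70, was 0.30 higher in rods on the log2 scale (adjusted p = 0.032 in the test of any size). The call of Hspa12b was lost with DESeq2, without a filter on low counts and without rod library 1 or 3 or Nrl-/- library 2 or 3, and that of Hspa14 with total counts and without rod library 2 or 3 or Nrl-/- library 1 or 2.

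**Figure D2:**
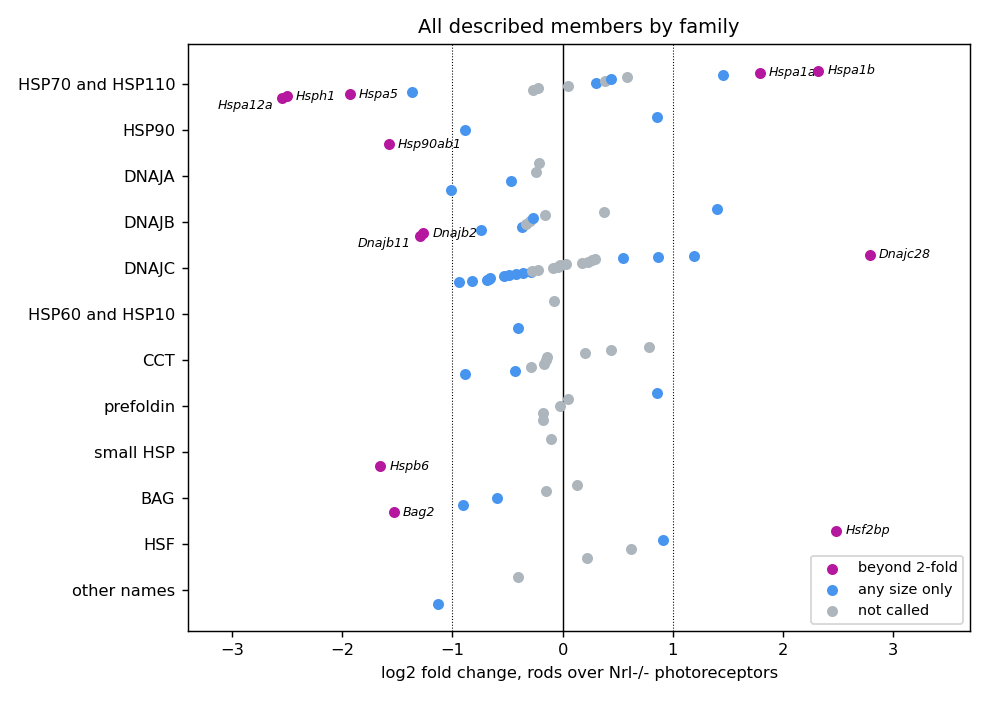
Log2 fold change of each of the 85 described members, rods over Nrl-/- photoreceptors, by family, with colours for members past the test against 2-fold, past the test of any size only, or past neither. HSP70 and HSP110 genes span the range from -2.54 to 2.32, while CCT and prefoldin genes lie between the dotted lines at -1 and 1.

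Members of the ER were higher in Nrl-/- photoreceptors where they passed a test, with 1 exception. Of 10 members on the ER list, 2 (Hspa5 and Dnajb11) were higher there beyond 2-fold, 5 in the test of any size, and 1 (Dnajc1) was higher in rods in that test. Towards Nrl-/- photoreceptors these tests called 13.2% and 31.3% of all genes. The summed CPM of the 10 ER members was 961 to 1546 in rods and 2458 to 3580 in Nrl-/- photoreceptors, a difference mostly from Hspa5 and Hsp90b1.

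Hspa5 encodes BiP, the HSP70 of the ER. It stood at 283, 547 and 481 CPM in rods and at 1071, 1931 and 2001 in Nrl-/- photoreceptors (log2 fold change -1.93 ± 0.27, adjusted p = 0.003), and in Nrl-/- photoreceptors it had the highest level per kilobase of all members, 638 CPM per kb. The groups did not overlap, library 1 was the lowest in each, and with DESeq2 the test against 2-fold was missed (-1.95, adjusted p = 0.074). The printed promoter holds the ER stress element at -65.

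Dnajb11, the ER J-domain protein that works with BiP, stood at 39.6, 51.9 and 55.0 CPM in rods and at 103, 123 and 134 in Nrl-/- photoreceptors (log2 fold change -1.29 ± 0.15, adjusted p = 0.045). Its call against 2-fold was lost without rod library 1 (-1.15, adjusted p = 0.23), without rod library 2, without Nrl-/- library 2 or 3, without a filter on low counts and with DESeq2 (adjusted p = 0.31), and it passed the test of any size (adjusted p = 1.5e-05). Dnajc3 (p58IPK), an ER J-domain protein that also inhibits the kinase PERK, was at 31.8 ± 3.32 against 56.1 ± 5.80 CPM (SD, n = 3) and passed the test of any size only.

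Hsp90b1, the ER HSP90 (GRP94), stood at 424, 716 and 629 CPM in rods and at 1047, 1240 and 991 in Nrl-/- photoreceptors (log2 fold change -0.89 ± 0.18, adjusted p = 0.0011 in the test of any size). Its level per kilobase was 1.301 ± 0.105 times that of Hspa5 in rods and 0.668 ± 0.235 times in Nrl-/- photoreceptors (SD, n = 3). By counted reads, Hspa5 was thus the lower of the 2 in rods and the higher in Nrl-/- photoreceptors. As reads with several matches were left out, the true order within a group is not given. Dnajc1, an ER membrane J-domain protein, went the other way, at 22.9, 25.6 and 27.2 CPM in rods and 10.2, 10.97 and 11.9 in Nrl-/- photoreceptors (1.19 ± 0.15, adjusted p = 3.2e-05 in the test of any size), and 8.72% of its exons overlap Mllt10.

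The cytosolic HSP90 genes differed in opposite directions. Hsp90ab1, the constitutive HSP90 beta, stood at 251, 330 and 261 CPM in rods and at 744, 862 and 905 in Nrl-/- photoreceptors (log2 fold change -1.58 ± 0.14, adjusted p = 0.0011). Hsp90aa1, the inducible HSP90 alpha, stood at 286, 406 and 309 CPM in rods and at 176, 189 and 189 in Nrl-/- photoreceptors. It was higher in rods by 0.85 ± 0.14 on the log2 scale (adjusted p = 0.00022 in the test of any size), without passing the test against 2-fold.

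Per kilobase of exon, Hsp90aa1 was 1.00, 1.08 and 1.04 times as high as Hsp90ab1 in rods and 0.208, 0.193 and 0.184 times as high in Nrl-/- photoreceptors. By counted reads, the 2 isoforms were thus level in rods and far apart in Nrl-/- photoreceptors. The spread between libraries was much smaller than the change of this ratio between groups. Reads with several matches were not counted, so the true ratio of the isoforms within a group is not given. The summed CPM of all 3 HSP90 genes was 962 to 1451 against 1967 to 2291.

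**Figure D3:**
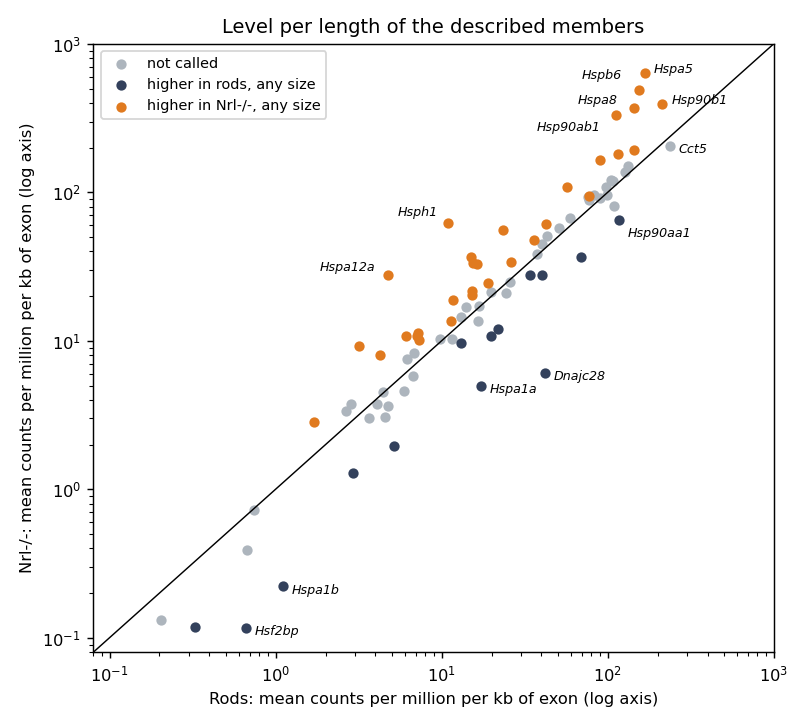
Mean level per kilobase of exon of the 85 described members in rods and Nrl-/- photoreceptors, both on log axes, with the line of equal level (n = 3 libraries per group). Hspa5 at 167 against 638, Hsph1 and Hspa12a lie above the line, and Dnajc28 at 41.7 against 6.05, Hspa1a and Hsp90aa1 below it.

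Among the J-domain genes, Dnajc28 stood apart. It stood at 158, 148 and 136 CPM in rods and at 24.8, 20.6 and 18.8 in Nrl-/- photoreceptors, the largest difference towards rods of all members (log2 fold change 2.79 ± 0.14, adjusted p = 9e-08). Little is known of the function of its product. No other Dnajc gene of the 25 described passed the test against 2-fold, which called 20.1% of all genes. In the test of any size, 4 (Dnajc28 included) passed towards rods and 10 towards Nrl-/- photoreceptors. Over all genes, 29.5% and 31.3% did.

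Dnajc18, which had the highest level per kilobase of the Dnajc genes in Nrl-/- photoreceptors (182 CPM per kb), stood at 593 ± 35.4 against 943 ± 69.2 CPM (SD, n = 3, log2 fold change -0.67, adjusted p = 0.00043 in the test of any size). Dnajc12, a J-domain protein that holds the aromatic amino acid hydroxylases, was at 77.4 ± 5.86 against 148 ± 30.1 CPM (-0.94, adjusted p = 0.00017 in the test of any size). The clathrin uncoating factor Dnajc6 (auxilin) and the synaptic vesicle chaperone Dnajc5 (cysteine string protein) were higher in Nrl-/- photoreceptors by 0.49 and 0.29 in the test of any size, and the mitochondrial Dnajc30 higher in rods by 0.87 with 37.6% of its exons shared with Bud23. The call of Dnajc5 (adjusted p = 0.047) was lost with a replicate block, without a filter on low counts, without each rod library in turn and without Nrl-/- library 1 or 2.

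Of the 10 described Dnajb genes, Dnajb11 and Dnajb2 passed the test against 2-fold, both towards Nrl-/- photoreceptors, where 13.2% of all genes did. Dnajb2, a J-domain protein of neurons that sorts clients to the proteasome, stood at 63.3, 81.6 and 79.3 CPM in rods and at 169, 180 and 190 in Nrl-/- photoreceptors (log2 fold change -1.26 ± 0.12, adjusted p = 0.036), a call lost without rod library 1 (-1.15, adjusted p = 0.19), rod library 3, Nrl-/- library 2 or 3, without a filter on low counts, and with DESeq2 (adjusted p = 0.23). Dnajb1, a heat-inducible partner of HSP70, overlapped between groups at 77.2 to 88.6 against 87.9 to 132 CPM. Dnaja1, a cytosolic J-domain protein, stood at 58.2, 58.4 and 59.8 against 106, 128 and 121 CPM (-1.01 ± 0.11, adjusted p = 1.1e-05 in the test of any size). In the same direction and the test of any size, Dnaja4 stood at 23.1 ± 4.15 against 31.97 ± 4.12 CPM and Dnajb5 at 6.22 ± 0.933 against 10.4 ± 2.43 CPM, while Dnaja2, the Dnaja gene with the highest level per kilobase, passed neither test at 226 ± 33.9 against 263 ± 10.6 CPM (SD, n = 3). The calls of any size were lost without rod library 2 for Dnaja4, Dnajb5 and Dnajb1, without rod library 3 or Nrl-/- library 3 for Dnaja4 and Dnajb1, without Nrl-/- library 2 for Dnajb5 and Dnajb1, and without rod library 1 for Dnajb1. Dnajb7 stood at 6.00 to 6.398 CPM in rods and at 4.90, 1.41 and 0.711 in Nrl-/- photoreceptors (1.404, adjusted p = 0.033 in the test of any size). That call was lost without a filter on low counts, without each rod library in turn and without Nrl-/- library 2. Without Nrl-/- library 1 the difference of Dnajb7 rose to 2.55 and passed the test against 2-fold (adjusted p = 0.00047).

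The heat-inducible list did not move as a block. Of its 12 genes, 9 were described, 2 were higher in rods beyond 2-fold (Hspa1a and Hspa1b), 1 in Nrl-/- photoreceptors (Hsph1), and 3 and 4 in the test of any size. Over all genes, 6.85% and 13.2% were called beyond 2-fold, and 29.5% and 31.3% in the test of any size. The median log2 fold change of the 9 was -0.07, and the summed CPM of the list was 948 to 1123 in rods and 1047 to 1156 in Nrl-/- photoreceptors. The remaining 3, Hspb1, Hspb8 and Bag3, had at most 8 counts in any library.

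Of the 4 described genes named after heat shock factors, 2 passed the test of any size towards rods (Hsf2 and Hsf2bp) and 0 towards Nrl-/- photoreceptors. Over all genes, 29.5% and 31.3% did. Hsf1, the master factor of the heat shock response, stood at 66.4, 55.6 and 67.4 CPM in rods and at 56.7, 52.3 and 53.5 in Nrl-/- photoreceptors, groups that overlap (0.22 ± 0.12, adjusted p = 0.13 in the test of any size). Hsf2, a factor known from development, stood at 188, 177 and 175 against 110, 95.1 and 82.5 CPM (0.91 ± 0.12, adjusted p = 6.1e-05 in that test). Hsf2bp had 46, 30 and 32 counts against 4, 12 and 10 (2.48 ± 0.50, adjusted p = 0.0098 against 2-fold), a call lost without rod library 1 (adjusted p = 0.065) and with DESeq2 (adjusted p = 0.091). Hsf5 had at most 22 counts in a library, and Hsf3 and Hsf4 had 0.

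The CCT ring and prefoldin held no member past the test against 2-fold. None of the 9 described CCT subunits passed the test against 2-fold, and Cct7 (-0.89, 8.73% of its exons shared with Pradc1) and Cct6a (-0.43) were higher in Nrl-/- photoreceptors in the test of any size. Over all genes, 31.3% passed that test towards Nrl-/- photoreceptors and 29.5% towards rods. The test against 2-fold called 20.1% of all genes in both directions together. The groups overlapped for Cct6a, at 286.5 to 342 against 315 to 527 CPM, and its call (adjusted p = 0.043) was lost without each rod library in turn and without Nrl-/- library 2 or 3. Cct5, the member with the highest level per kilobase in rods, stood at 496, 552 and 472 CPM in rods and at 354, 463 and 505 in Nrl-/- photoreceptors. Of 5 prefoldin subunits, Pfdn4 passed the test of any size, higher in rods by 0.86 ± 0.19, with 30.5% of its exons shared with Cyp24a1 and Gm16796, and Pfdn5, the subunit with the highest level per kilobase, stood at 90.8 ± 5.64 against 103 ± 22.8 CPM (SD, n = 3).

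These subunits were ordered alike among libraries of the same group. Within Nrl-/- photoreceptors, library 1 was the lowest for 9 of 9 CCT and 5 of 5 prefoldin genes, and over all genes tested it was the lowest for 38.9%. Within rods, library 2 was the highest for 8 of 9 CCT and 5 of 5 prefoldin genes, against 35.0% of all genes. Over all 85 members, Nrl-/- library 1 was the lowest for 63.5% and rod library 2 the highest for 52.9%.

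Of the small heat shock proteins, Hspb6 alone passed the count minimum. Hspb6 (HSP20) stood at 250, 332 and 279 CPM in rods and at 804, 986 and 921 in Nrl-/- photoreceptors (log2 fold change -1.66 ± 0.14, adjusted p = 0.00041), which placed it second per kilobase among the members of Nrl-/- photoreceptors at 488 CPM per kb. Part of its exons (4.32%) overlaps Gm38670 and Lin37, and the reads do not carry strand. Hspb1, Hspb2, Hspb3, Hspb7, Hspb8 and Hspb9 had at most 8 counts in any library, and Hspb11 stood at 13.4 ± 1.38 against 14.4 ± 1.65 CPM (SD, n = 3).

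Of the mitochondrial list of 8, Dnajc15 and the chaperonin Hspd1 (HSP60) were higher in Nrl-/- photoreceptors and Dnajc30 in rods in the test of any size, and none passed the test against 2-fold. The test of any size called 31.3% of all genes towards Nrl-/- photoreceptors and 29.5% towards rods. The test against 2-fold called 20.1% in both directions together. Hspd1 stood at 86.7, 108 and 85.5 CPM against 114, 131 and 127 (-0.41 ± 0.12, adjusted p = 0.013 in the test of any size), and its partner Hspe1 (HSP10), which shares its promoter, overlapped between groups at 6.48 to 9.60 against 6.16 to 9.88 CPM. The call of Hspd1 was lost without rod library 1 or 3 or Nrl-/- library 2. The pair holds the same heat shock element, shown above for Hspd1.

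Of the BAG proteins, which release clients from HSP70, Bag2 was higher in Nrl-/- photoreceptors beyond 2-fold. It stood at 5.82, 5.11 and 6.34 CPM in rods and at 15.4, 17.1 and 17.4 in Nrl-/- photoreceptors (log2 fold change -1.53 ± 0.17, adjusted p = 0.0067). Bag4 (20.5 ± 1.02 against 38.5 ± 3.07 CPM) and Bag6 (30.6 ± 0.602 against 46.3 ± 2.55 CPM, SD, n = 3) passed the test of any size only, in the same direction. Bag1 and Bag5 passed neither, and Bag3 had at most 7 counts. The HSP70 exchange factor Hspbp1 stood at 23.3 ± 1.00 against 50.8 ± 11.5 CPM (-1.13), and passed the test against 2-fold only without Nrl-/- library 1 (adjusted p = 0.029).

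Partner genes outside the name rule were read in the same fit. Of 62 co-chaperones and folding enzymes, 61 were tested, 5 were higher in Nrl-/- photoreceptors beyond 2-fold by edgeR and 0 in rods. In the test of any size 29 and 14 passed. Over all genes 13.2% were called towards Nrl-/- photoreceptors beyond 2-fold and 6.85% towards rods, larger shares than in this list. In the test of any size, 31.3% of all genes were called towards Nrl-/- photoreceptors, a smaller share than in this list. Towards rods that test called 29.5%, a larger share than in this list. DESeq2 called 4 and 0 beyond 2-fold. The 5 were Clpb (-2.43 ± 0.12), a mitochondrial disaggregase, the ER lectin Canx (-1.58 ± 0.17), the ER disulfide isomerase Pdia6 (-1.46 ± 0.19), the HSP90 partner Fkbp4 (-1.42 ± 0.13) and the prenyl-binding protein Pde6d (-1.61 ± 0.18), which carries lipid-anchored proteins to the outer segment. Pdia6 lost its call without rod library 1 or 3, without Nrl-/- library 2 and with DESeq2 (adjusted p = 0.11). Clpb stood at 23.6, 27.3 and 29.5 CPM in rods and at 138, 149 and 147 in Nrl-/- photoreceptors.

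Open chromatin near the members was next compared in 244 elements of 200 bp whose nearest RefSeq start was that of a member. Between rods and cones (Nrl-/- photoreceptors and double-sorted green cones as a single group), 239 elements were tested, of which 4 were more open in rods and 25 in cones (edgeR, test against 2-fold, adjusted p under 0.1). The shares were 1.67% and 10.5%, where 3.96% and 18.0% of all 51563 elements were called. Between rods and Nrl-/- photoreceptors alone, 7 and 30 of 229 were called, against 6.39% and 20.9%, and this comparison shares its libraries with the one before. No member element was called between double-sorted green cones and Nrl-/- photoreceptors (0 of 204, and 6 of all 42732 elements).

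Promoter elements, from 1000 bp upstream to 100 bp downstream of a start, were present for 71 of the 85 described members. Of 116 tested, 0 were more open in rods and 2 in cones (the promoters of Dnajb3 and Hspa12a), where 1.53% and 6.83% of all promoter elements were, and against Nrl-/- photoreceptors alone 1 and 5 of 115 were, where 2.92% and 8.63% were. Of the 12 members whose RNA differed beyond 2-fold, 10 had a tested promoter element, and it was called between rods and Nrl-/- photoreceptors for Hspa12a alone. The promoter element of Dnajc28, at 44.5 CPM in rods and 27.4 in Nrl-/- photoreceptors, and that of Hsph1, at 107 and 100, were not called. Over 71 members, all from the same libraries, Pearson's r between the log2 fold changes of promoter element and RNA was 0.23 (Spearman's rho 0.15), a description across genes and not across replicates.

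**Figure D4:**
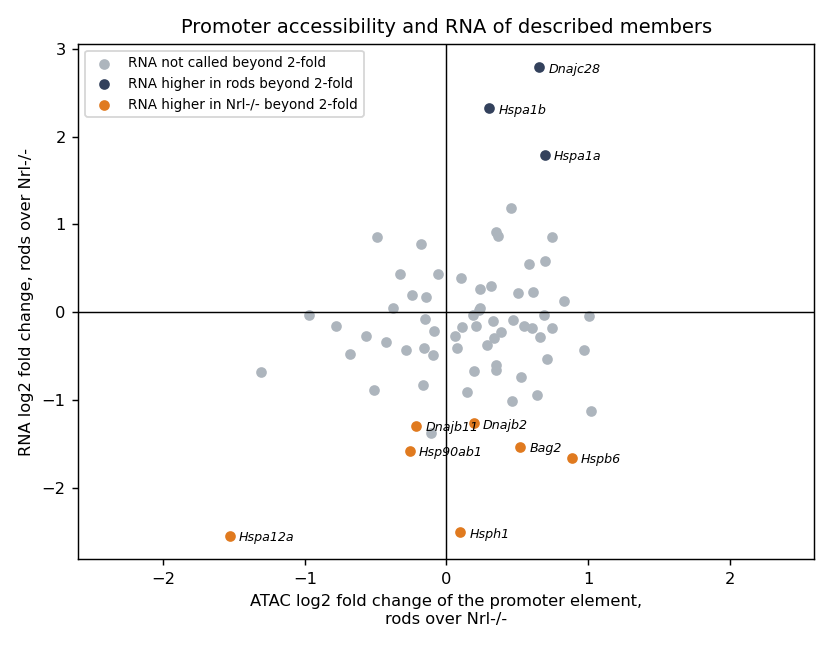
Log2 fold change of the promoter element in ATAC-seq (horizontal, the element of highest level where a gene had several) and of RNA (vertical), rods over Nrl-/- photoreceptors, for 71 described members. Hspa12a is low on both axes, and 9 of the 10 members with RNA called beyond 2-fold lie within 1 unit of 0 in accessibility.

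Hspa12a had the most called elements among members with RNA called beyond 2-fold. Its promoter element (94 bp upstream, chr19:58860978-58861177) was at 14.6 and 17.5 CPM in rods, 35.2 and 54.7 in Nrl-/- photoreceptors and 87.1 and 30.5 in double-sorted green cones (log2 fold change rods over cones -1.68, adjusted p = 0.078). An element 31118 bp inside the gene was at 4.17 and 1.51 CPM in rods, 17.0 and 22.3 in Nrl-/- photoreceptors and 21.8 and 19.8 in green cones (-2.83, adjusted p = 0.006). At another called element, 504 bp inside the gene, both rod libraries were also lowest. An element at -63066 bp from the start was highest in Nrl-/- photoreceptors, at 24.8 and 17.3 CPM against 4.66 and 1.80 in green cones and 1.67 and 1.13 in rods, although the difference between green cones and Nrl-/- photoreceptors was not called.

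Hsp90aa1 had a pair of elements more open in rods. The first, at -11307 bp from the start, was at 101.0 and 107.5 CPM in rods, 15.7 and 19.3 in Nrl-/- photoreceptors and 38.9 and 35.0 in double-sorted green cones (log2 fold change rods over cones 2.02, adjusted p = 0.01). The second, at -10757 bp, was at 27.7 and 24.1 CPM in rods, 0.828 and 4.09 in Nrl-/- photoreceptors and 1.56 and 10.8 in green cones (2.74, adjusted p = 0.022). Its promoter element, at 63.1 CPM in rods and 37.8 in Nrl-/- photoreceptors, was not called. In single-sorted green cones the first element was at 63.2 and 55.6 CPM, between rods and double-sorted green cones. The study's sample sheet lists the first of these single-sorted libraries under the Nrl-eGFP;Nrl-/- line, against its Opn1mw-GFP label, so its value is that of a library labelled green cone.

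**Figure D5:**
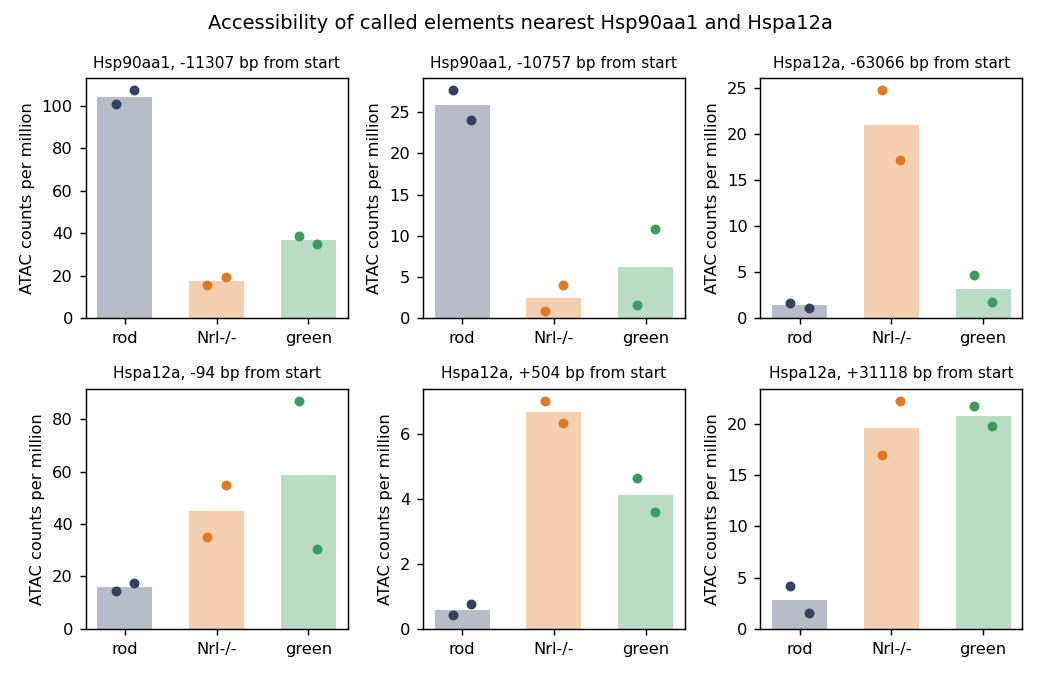
ATAC-seq CPM of the 6 called elements nearest Hsp90aa1 and Hspa12a, titled by distance from the start of the gene, in rods, Nrl-/- photoreceptors and double-sorted green cones (bars are means of 2 libraries, points the libraries). Rods are highest at both Hsp90aa1 elements and lowest at all 4 Hspa12a elements, which the calls that chose these elements all but fix.

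Called elements also lay near Hsph1, Hsp90ab1 and Dnajc12, whose RNA was higher in Nrl-/- photoreceptors. Near Hsph1, an element at -5942 bp from the start was at 0.833 and 0.753 CPM in rods, 2.48 and 3.18 in Nrl-/- photoreceptors and 7.77 and 14.4 in green cones (called between rods and cones, adjusted p = 0.079). Near Hsp90ab1, an element 377 bp inside the gene was at 4.17 and 2.64 CPM in rods and up to 12.03 in Nrl-/- photoreceptors (adjusted p = 0.027). Dnajc12 had 2 promoter elements, and the weaker, at -606 bp from the start, went against its RNA. This weaker element was at 21.2 and 19.2 CPM in rods and 5.80 and 6.81 in Nrl-/- photoreceptors (adjusted p = 0.024). Between rods and cones it was not called (adjusted p = 0.11). The stronger, 24 bp inside the gene, was called in neither comparison. Its mean was 51.1 CPM in rods and 32.6 in Nrl-/- photoreceptors (log2 fold change 0.643). The promoter of Bag3 was open in both, at 17.7 and 16.2 against 39.7 and 43.4 CPM, with at most 7 RNA counts in any library. For Hspa5, no promoter element was among those used here.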

How the data were processed

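Members, families and gene lists were chosen with earlier results of these data known. Groups came from the labels. RNA-seq reads were aligned by the authors to GRCm38 with STAR 2.4.2a and counted per RefSeq gene with HTSeq 0.6.1p1, and the library kit does not keep strand. The submitters' processing notes name Bowtie2 2.2.3, SAMtools 1.3, Picard 1.121, MACS2 2.1.0, HOMER 4.8 and bedtools 2.24.0 for ATAC-seq. Both deposited tables hold raw counts, per gene and per 200 bp element of the merged peaks. Reads without an assigned gene (41.3% to 49.2% of a library, 23.3% to 30.0% for matches to several places) were left out. Totals were 18376770 to 26312895 gene counts per RNA-seq library and 1062403 to 5770075 counts in elements per ATAC-seq library. The 2 double-sorted green cone libraries were the shallowest, which limits the precision of their elements.

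Genes and elements kept by filterByExpr were scaled by TMM and fitted with edgeR 4.0.16 (R 4.3.3), robust, over the whole table, without covariates, and tested with glmTreat against a log2 fold change of 1 (adjusted p under 0.05, for ATAC-seq 0.1) and, for RNA-seq, against no change. The study used DESeq2, which was run as an alternative (1.42.0). Fits were tested on simulated counts. Levels between genes are CPM per kb of merged RefSeq exons. They rest on counted reads, so genes that share reads with other places may be understated. Elements were assigned to the nearest of 31646 RefSeq start sites. Named genes were the heat-inducible list, members called beyond 2-fold, the highest member and up to 3 members called in the test of any size per family, BAG and HSF members, called partners, and members that are not chaperones. Others named (Dnajb3, Dnajb6, Dnajc5, Dnajc6, Dnajc15, Dnajc30, Hspa9, Hspa14, Hspb2, Hspb3, Hspb7, Hspb9 and called elements) were chosen after their values were seen. The alternatives were other scalings, low-count filters, DESeq2, a replicate block, promoter elements only, single-sorted green cones and each library left out. Peak lists were not used here. The authors' peak lists hold their own calls. Nothing says which libraries share mice, so p-values measure the spread between these libraries.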

Additional observations from a re-analysis of the deposited data

How the results depend on the processing

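Of 116 alternative values of the 10 counts, 102 stayed within 1.5 times the main count. DESeq2 with the same thresholds called 2 members higher in rods beyond 2-fold in place of 4, and 5 in Nrl-/- photoreceptors in place of 8, losing Dnajb11, Dnajb2, Hsf2bp, Hspa1b and Hspa5. For elements nearest members, DESeq2 called 2 more open in rods than cones (main 4), 14 more open in cones (main 25) and 15 more open in Nrl-/- photoreceptors than rods (main 30). With promoter elements only, by construction a smaller set, these counts were 0, 2 and 5, and 1 in place of 7 more open in rods than Nrl-/- photoreceptors. Leaving out each library in turn gave 1 to 6 elements more open in rods than cones (2 without rod library 1 and 1 without rod library 2), 9 to 25 more open in cones (9 without rod library 1 and 11 without rod library 2), and 18 to 29 more open in Nrl-/- photoreceptors than rods (18 without Nrl-/- library 2). The cause was not tested. For RNA, leaving out libraries gave 3 to 5 members higher in rods and 6 to 10 in Nrl-/- photoreceptors beyond 2-fold.

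Of 600 alternative values of 50 named genes, 7 changed sign, all in members called by neither setting: with a library left out, Bag1 ranged from -0.06 to 0.3 (-0.06 without rod library 2, -0.05 without Nrl-/- library 1), Hspe1 from -0.27 to 0.11 (0.04, 0.03 and 0.11 without rod library 1, rod library 3 or Nrl-/- library 3) and Pfdn5 from -0.27 to 0.02 (0.02 without Nrl-/- library 3), and with total counts Hspa4l was at -0.03. Another 21 lost and 6 gained a call against 2-fold.

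Libraries were not treated as paired by number, since same-numbered RNA-seq libraries had correlations of their deviations of 0.172, 0.077 and 0.015, and rod library 2 correlated best with Nrl-/- library 3 (0.133); in ATAC-seq the value was 0.029. A replicate block gave 4 and 9 members beyond 2-fold, Hspa8 being the addition, and 7 and 27 elements between rods and Nrl-/- photoreceptors. Low counts limit Hspa1b, Hsf2bp, Hspa12b, Hsf5 and the elements of green cones, and the RNA-seq design of 3 against 3 cannot go below p = 0.1 in an exact permutation test of a single gene.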
